A study of Arabidopsis thaliana with 12 samples.

Results

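The genes described here are the photosynthesis genes that Arabidopsis carries on its plastid genome. They were taken as the probe sets of the ATH1 expression array that name exactly 1 gene with a plastid locus code and a symbol beginning psa, psb, pet, atp, ndh or rbcL. This gave 43 probe sets for 43 genes, out of 22746 probe sets tested and out of 69 that name 1 plastid gene. By complex they are 5 genes of photosystem I, 15 of photosystem II, 6 of the cytochrome b6f complex, 6 of the plastid ATP synthase, 10 of the NDH complex and the gene of the Rubisco large subunit. ndhB was left out because its probe set names 2 gene copies, and that probe set lay at the floor of the array, from 2.207 to 2.214 on the log2 scale in the 4 genotype means.

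RNA from whole, untreated Arabidopsis thaliana seedlings of the Columbia accession was measured on 12 arrays, 3 for each of 4 genotypes. SAB, SIZ1 and AB are T-DNA knock-outs, and COL is the wild type. SIZ1 is the name of a ligase that attaches the small protein SUMO to other proteins, and the submitters' purpose was to see what ubiquitin-like proteases do to plant transcription. The labels do not say which genes are disrupted in AB and SAB, or whether a line descends from 1 insertion event. All 4 genotypes were grown at 23 °C under 100 µE of light, on Murashige-Skoog medium to which Gamborg B5 was added. The labels give an age of 10 days for AB 1 and AB 2, and a harvest date, shared by all of them, for the other 10 arrays. Separate cultures for the 3 samples of each genotype are not mentioned in the labels. The spread behind each p-value may therefore be technical.

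The plastid genome encodes the core of each photosynthetic complex, while the nucleus encodes most of the antenna and many peripheral subunits. The photosystems drive electrons from water to ferredoxin, the cytochrome b6f complex joins them and pumps protons, the ATP synthase uses the proton gradient, the NDH complex returns electrons to the chain in cyclic flow, and Rubisco fixes carbon dioxide. Most plastid genes are transcribed in groups, by a plastid-encoded bacterial-type RNA polymerase whose sigma factors come from the nucleus and by phage-type polymerases that are nuclear too. The long primary transcripts are then cut, spliced and edited. Plastid transcripts mostly lack the poly-A tails of nuclear ones, and the sources used here do not say whether labelling was primed from such tails or whether the 12 arrays were normalized together. The plastid values may therefore follow transcription, processing, decay, polyadenylation or labelling, which cannot be told apart here.

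All values are log2 expression values made by the authors with GCRMA, and a difference of 1 is a doubling or halving. Differences were tested with limma over all 22746 probe sets, and a gene counts as called where its p, adjusted by Benjamini-Hochberg, was under 0.05. The labels were checked with the SIZ1 gene and with AT1G09730, a SUMO protease gene chosen with earlier results known. Of the 2 probe sets of the SIZ1 gene, 1 read 2.49 to 2.55 in SAB and 2.19 to 2.51 in SIZ1, against 5.16 to 5.45 in AB and 5.36 to 5.60 in COL. The other ran the opposite way, from 3.84 to 3.95 in SAB and 4.12 to 4.63 in SIZ1, against 3.07 to 3.27 in AB and 2.91 to 3.07 in COL. AT1G09730 read 3.13 to 3.29 in SAB, 4.22 to 4.35 in SIZ1 and 2.80 to 3.42 in AB, against 4.74 to 4.80 in COL, and the labels do not name it as a disrupted gene. The mean signal of the 43 plastid genes ran from 2.30 to 12.62. It lay above the overall median of 3.51 for 37 of them, and 19 were in the brightest 5% of the array. The dim ones were petN, petG, petD, ndhF, ndhG and ndhH. GCRMA compresses changes near the floor, so a small difference of these 6 says little.

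In SAB, the plastid photosynthesis genes were lower than in COL across most complexes, and none was called higher. Of the 43, 16 fell and 27 did not pass the test. Over all probe sets 1.56% were called lower in that comparison and 1.66% higher. The median difference of the 43 was -0.46, while that of all probe sets was 0.004. The estimate lay below 0 for 36 of the 43, against 46.0% of all probe sets. All 3 SAB arrays lay below all 3 COL arrays for 30 of the 43, where 9.83% of all probe sets did so.

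In SIZ1 the shift was as broad but fewer genes were called. Here 5 fell, 0 were called higher and 38 did not pass, against 1.29% of all probe sets called lower and 1.93% higher. The median difference was -0.41, and 42 of the 43 estimates lay below 0, against 63.6% of all probe sets. The SIZ1 arrays lay below the COL arrays without overlap for 31 of the 43, but 26% of all probe sets did the same. None of the 43 lay above COL without overlap in SIZ1, against 8.1% of all probe sets, and none in SAB, against 8.33%. In AB no gene of the 43 was called (limma), and 0.0615% of all probe sets were. The median was 0.04, and the estimates split into 16 below and 27 above 0. These 3 comparisons share the COL arrays.

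**Figure D1:**
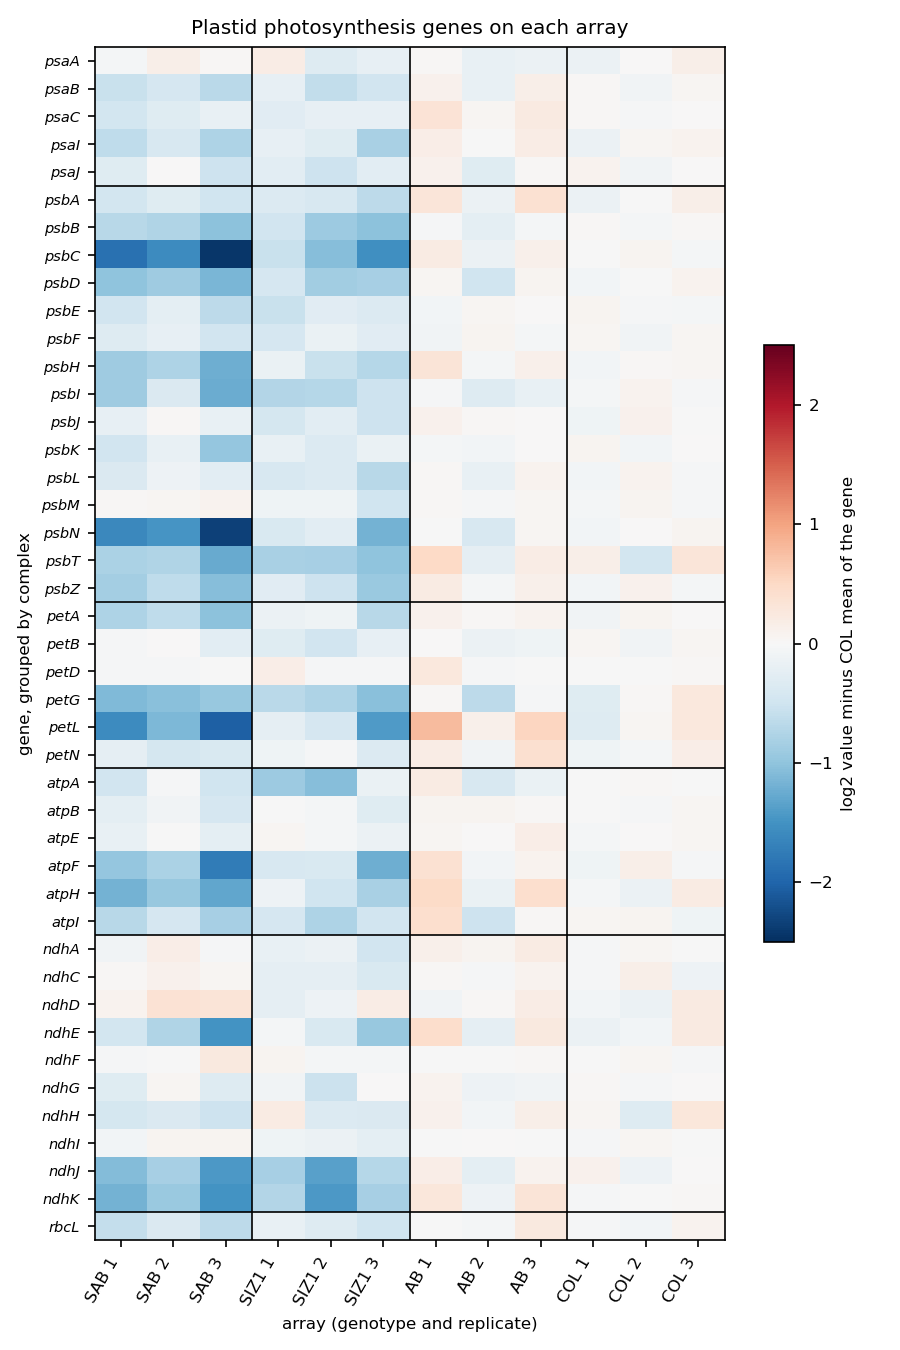
Each cell is the log2 value of 1 gene on 1 array minus the gene's mean over the 3 COL arrays, with the 43 genes in rows grouped by complex (psa, psb, pet, atp, ndh, rbcL) and the 12 arrays in columns. The SAB and SIZ1 columns are mostly blue, the darkest cells are psbC, psbN and petL on SAB 3, and the AB columns stay near white except on single genes such as petL.

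The size of the shift differed between arrays of 1 genotype. The median of the 43 genes relative to the COL means was -0.47, -0.35 and -0.65 on SAB 1, 2 and 3. It was -0.23, -0.35 and -0.49 on SIZ1 1, 2 and 3, 0.10, -0.08 and 0.09 on AB 1, 2 and 3, and -0.04, -0.01 and 0.03 on the COL arrays. Every SAB and SIZ1 array therefore lay below every AB and COL array in this median. SAB 3 held the lowest SAB value for 30 of the 43 genes, SIZ1 3 the lowest SIZ1 value for 26 and AB 2 the lowest AB value for 36. The typical spread of the genes was wider in the mutants. The median SD over the 43 genes was 0.165 in SAB, 0.193 in SIZ1 and 0.144 in AB, against 0.080 in COL. For the brightest 25% of the array it was 0.119, 0.128 and 0.103, against 0.123.

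Other measures moved with the genotypes. The 27 poly-A control probe sets, which read RNA added during labelling, averaged -0.18 in SAB, -0.37 in SIZ1 and 0.20 in AB relative to COL. They stood at -0.23, -0.32 and 0.01 on SAB 1, 2 and 3, at -0.35, -0.21 and -0.54 on SIZ1 1, 2 and 3, at 0.22, -0.08 and 0.45 on AB 1, 2 and 3, and at -0.15, -0.08 and 0.23 on COL 1, 2 and 3. In SIZ1, AB and COL the array with the lowest plastid median also had the lowest poly-A mean of its genotype, and in SAB it had the highest. The amount of RNA labelled was 850 to 894 ng in SAB, 652 to 802 ng in SIZ1, 678 to 790 ng in AB and 681 to 812 ng in COL. Of 9 root markers 3 were measured under their own name, PYK10, EXPA7 and EXPA18, with EXPA7 and EXPA18 near the floor. Their summed signal on the log2 scale was 11.88 to 11.92 in SAB, 11.49 to 11.83 in SIZ1, 11.79 to 11.82 in AB and 11.59 to 11.72 in COL, and none of the 3 was called. The part of these measures in the plastid result was not tested. In whole seedlings, fewer green cells and less plastid RNA per cell cannot be told apart.

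Photosystem II held the largest falls of SAB, and in SIZ1 the largest called falls were those of ndhK and ndhJ. Of its 15 genes 8 fell in SAB, with a median difference of -0.82, and 3 fell in SIZ1, with a median of -0.48. In SIZ1 all 15 had their 3 arrays below the COL arrays, and in SAB 13 did, where 26% and 9.83% of all probe sets did. For this and each complex below, 1.56% of all probe sets were called lower in SAB and 1.29% in SIZ1. psbC, which encodes an inner antenna protein of the core, read 8.57, 8.88 and 8.02 in SAB, 9.88, 9.39 and 8.91 in SIZ1, 10.64, 10.30 and 10.57 in AB, and 10.43, 10.50 and 10.40 in COL. The SAB values lay below all SIZ1 values, and these below all AB and COL values. psbC fell by 1.96 (SE 0.26), or 3.88-fold, in SAB (limma adjusted p = 0.00559). In SIZ1 the difference was -1.05 (SE 0.26) and missed the threshold (limma adjusted p = 0.0651), but it was called with the replicate number as a block (limma adjusted p = 0.0437).

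psbN, whose product helps to assemble photosystem II and which lies on the strand opposite to its neighbours, was the next. It read 3.87, 4.01 and 3.16 in SAB, 5.12, 5.22 and 4.31 in SIZ1, 5.49, 5.10 and 5.53 in AB, and 5.42, 5.50 and 5.55 in COL. Every SAB array lay below every other array. The difference from COL was -1.81 (SE 0.27, limma adjusted p = 0.00998) in SAB and -0.61 (SE 0.27, limma adjusted p = 0.319) in SIZ1. Whether its probes read transcripts of 1 strand alone was not checked here, so signal from the opposite strand cannot be told apart.

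psbD, which encodes a reaction centre protein and overlaps the start of psbC, read 6.82, 6.92 and 6.67 in SAB, 7.39, 6.96 and 6.99 in SIZ1, 7.86, 7.31 and 7.89 in AB, and 7.75, 7.80 and 7.91 in COL. It fell by 1.01 (SE 0.16, limma adjusted p = 0.0140) in SAB. In SIZ1 it was the gene just outside the threshold, at -0.70 (SE 0.16, limma adjusted p = 0.0546). psbA, the other reaction centre gene, stood at 8.48 ± 0.11 (SD, n = 3) in SAB and 8.44 ± 0.16 in SIZ1, against 8.90 ± 0.14 in COL, and was called in neither.

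psbB, which encodes the other inner antenna protein, had nearly the same difference in both lines. It read 5.05, 4.99 and 4.72 in SAB, 5.26, 4.83 and 4.72 in SIZ1, 5.71, 5.49 and 5.69 in AB, and 5.76, 5.68 and 5.77 in COL. SAB and SIZ1 overlapped, and both lay below AB and COL. psbB fell by 0.82 in SAB and by 0.80 in SIZ1 (SE 0.14 for each, limma adjusted p = 0.0156 and 0.0167). Of the neighbours of psbB, the small subunit gene psbH fell by 0.96 (SE 0.16) in SAB and differed by -0.48 in SIZ1, and psbT differed by -0.93 and -0.88 and was called in neither (limma adjusted p = 0.0690 and 0.0812).

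The small subunit genes psbZ and psbI also fell in SAB, by 0.85 and 0.83, and so did psbE, a cytochrome subunit gene of the core, by 0.46. psbI was the gene just inside the threshold in SAB (limma adjusted p = 0.0475), and its call ended with the replicate block (limma adjusted p = 0.0572) and with quantile normalization. psbJ and psbL, neighbours of psbE and psbF, had a different order. psbJ read 10.35, 10.57 and 10.37 in SAB, 10.12, 10.28 and 10.03 in SIZ1, 10.66, 10.59 and 10.57 in AB, and 10.44, 10.67 and 10.55 in COL. The SIZ1 arrays were the lowest, and SAB overlapped COL. In SIZ1 psbJ fell by 0.41 (SE 0.08, limma adjusted p = 0.0350) and psbL fell by 0.48 (SE 0.10, limma adjusted p = 0.0425), while in SAB they differed by -0.12 and -0.26. The call of psbL ended with the replicate block and with quantile normalization. psbM, a bright small subunit gene at 12.05 ± 0.03 (SD, n = 3) in SAB against 12.00 ± 0.07 in COL, had the highest estimate of the complex in SAB. psbK had the highest in SIZ1, at -0.23.

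**Figure D2:**
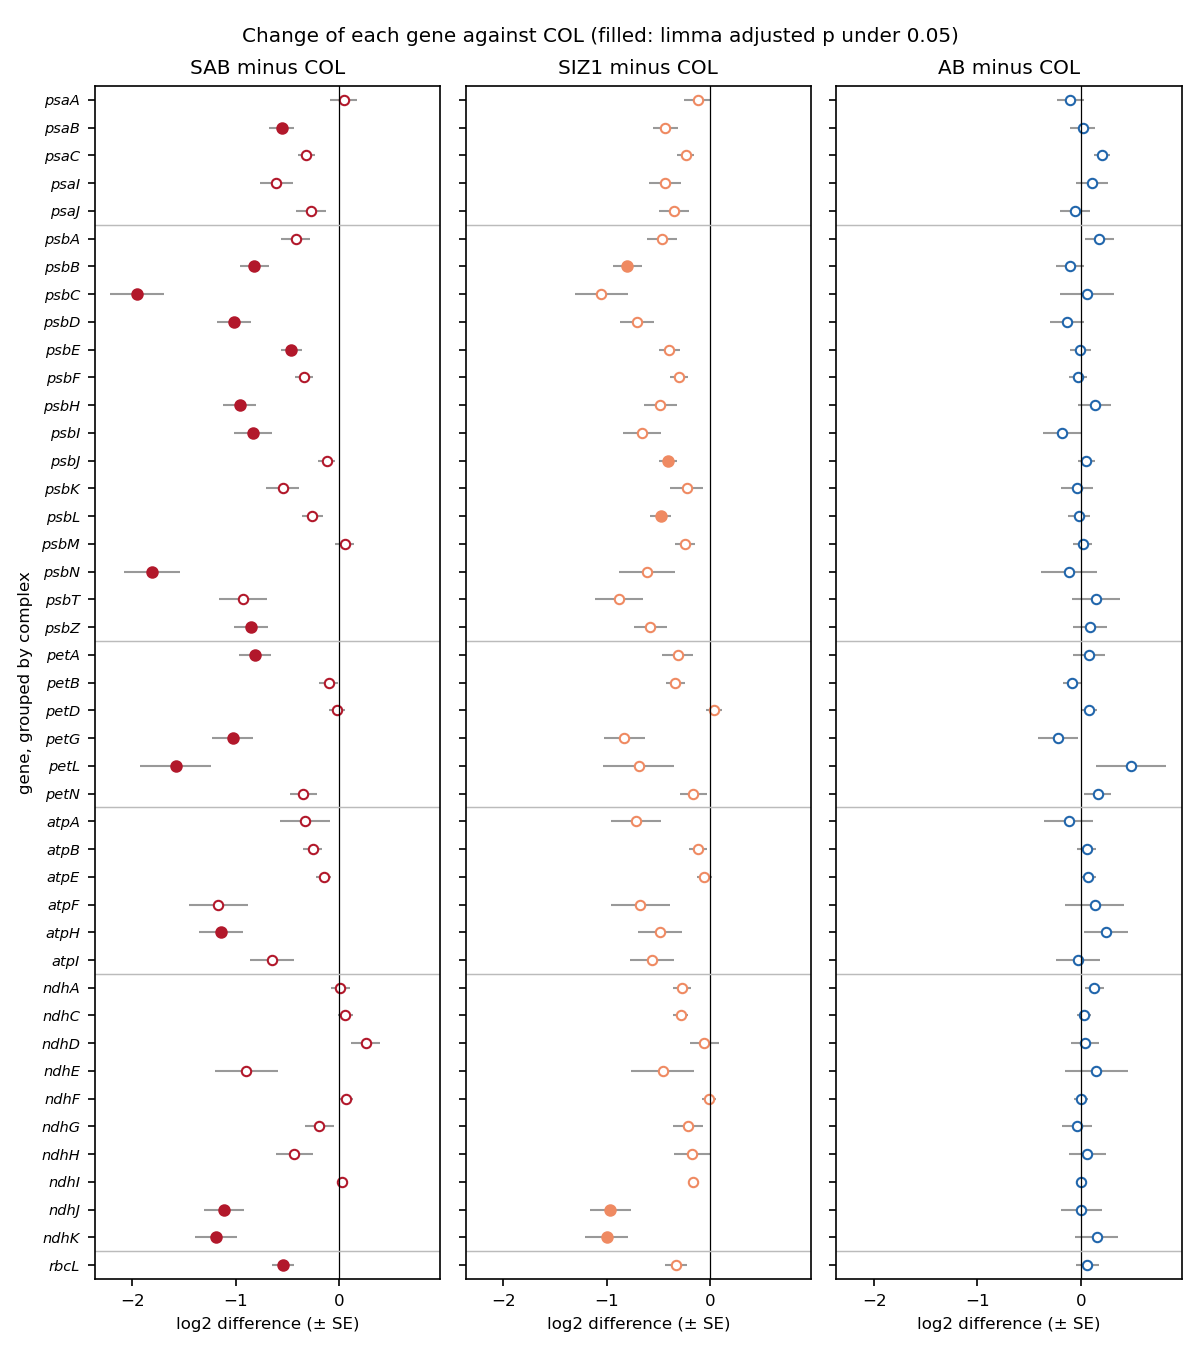
Points are the log2 differences of SAB, SIZ1 and AB from COL for each of the 43 genes, bars are limma's moderated SE, and filled points passed the test. In SAB 16 points are filled, all left of 0, in SIZ1 5, and in AB none.

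The cytochrome b6f genes split into genes with large and with small differences. In SAB 3 of the 6 fell, petA, petL and petG, and in SIZ1 none passed. petL, a small subunit gene, read 4.07, 4.53 and 3.62 in SAB, 5.42, 5.23 and 4.24 in SIZ1, 6.44, 5.79 and 6.20 in AB, and 5.33, 5.71 and 5.92 in COL. All SAB values lay below all COL values, and SIZ1 overlapped both. petL fell by 1.58 (SE 0.34, limma adjusted p = 0.0421) in SAB, a call that ended with quantile normalization (limma adjusted p = 0.0557), and it differed by -0.69 in SIZ1 and by 0.49 in AB, the highest estimate among the 43 in AB.

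petA, which encodes cytochrome f, read 8.26, 8.40 and 7.995 in SAB, 8.89, 8.93 and 8.33 in SIZ1, 9.15, 9.06 and 9.11 in AB, and 8.94, 9.11 and 9.03 in COL. It fell by 0.81 in SAB (SE 0.15, limma adjusted p = 0.0242). The 3 SIZ1 values lay below COL without a call, SIZ1 1 and SIZ1 2 just below it and SIZ1 3 further down. petG, the dim small subunit gene next to petL, fell by 1.03 in SAB (SE 0.20) and had the lowest estimate of the complex in SIZ1, at -0.83 (limma adjusted p = 0.0573). petB, which encodes the cytochrome b subunit, stood at 10.47 ± 0.15 in SAB and 10.24 ± 0.14 in SIZ1, against 10.57 ± 0.07 in COL (SD, n = 3 each). petD lay at the floor in all genotypes, from 2.25 to 2.35 in the means.

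Of the 6 ATP synthase genes 1 fell in SAB and none in SIZ1, with medians of -0.49 and -0.52. atpH, which encodes the ring subunit of the membrane part, read 6.14, 6.39 and 6.03 in SAB, 7.20, 6.84 and 6.52 in SIZ1, 7.81, 7.17 and 7.76 in AB, and 7.28, 7.18 and 7.54 in COL. The SAB arrays lay below all others. atpH fell by 1.15 in SAB (SE 0.21, limma adjusted p = 0.0231). atpF, a stalk subunit gene and its neighbour, differed by -1.17 (SE 0.28) and was the gene just outside the threshold (limma adjusted p = 0.0630), and it was called with the replicate block (limma adjusted p = 0.0312). atpA, which encodes a catalytic-head subunit, had the lowest estimate of the complex in SIZ1, at -0.72 (limma adjusted p = 0.165), and stood at -0.33 in SAB. atpB and atpE, head and shaft subunit genes that overlap each other, were among the brightest genes of the array. They differed by -0.25 and -0.15 in SAB and by -0.12 and -0.05 in SIZ1.

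The NDH complex was uneven, and its genes ndhF, ndhG and ndhH were dim. In SAB 2 of its 10 genes fell, and the estimates of the 10 were split 5 below and 5 above 0, with a median of -0.09. In SIZ1 the same 2 genes fell, and all 10 estimates lay below 0, with a median of -0.24. ndhK, a subunit gene of the arm that accepts electrons, read 5.41, 5.66 and 5.10 in SAB, 5.86, 5.14 and 5.76 in SIZ1, 6.87, 6.46 and 6.90 in AB, and 6.57, 6.57 and 6.62 in COL. It fell in both lines, with differences of -1.19 in SAB and -1.0003 in SIZ1 (SE 0.21 for each, limma adjusted p = 0.0168 and 0.0333).

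ndhJ, of the same arm and next to ndhK, read 7.41, 7.67 and 7.06 in SAB, 7.66, 7.14 and 7.78 in SIZ1, 8.65, 8.26 and 8.59 in AB, and 8.60, 8.37 and 8.51 in COL. SAB and SIZ1 overlapped for both genes and lay below AB and COL. ndhJ fell by 1.11 in SAB and by 0.96 in SIZ1 (SE 0.20 for each, limma adjusted p = 0.0191 and 0.0333). ndhC, a membrane-arm gene that lies beside ndhK with no gene between them, read 10.26, 10.34 and 10.27 in SAB, 10.01, 10.00 and 9.84 in SIZ1, and 10.20, 10.38 and 10.11 in COL. Its SAB values sat within the COL range and its SIZ1 values below it, and neither difference was called. ndhD had the highest estimate of the 43 in SAB, 0.26 (95% interval -0.05 to 0.56), and ndhF the highest of the complex in SIZ1, -0.01, at the floor.

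In photosystem I, 1 gene of 5 fell in SAB and none in SIZ1, with medians of -0.32 and -0.34. psaB, which encodes a reaction centre protein, read 10.82, 10.95 and 10.70 in SAB, 11.18, 10.76 and 10.91 in SIZ1, 11.48, 11.20 and 11.52 in AB, and 11.42, 11.29 and 11.44 in COL. It fell by 0.56 in SAB (SE 0.12, limma adjusted p = 0.0421). psaI, a small subunit gene, had the lowest estimate of the complex in both lines, at -0.61 and -0.44, without a call. psaA, the partner reaction centre gene next to psaB, had the highest, at 0.05 in SAB and -0.12 in SIZ1.

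rbcL, which encodes the large subunit of Rubisco, read 7.92, 8.16 and 7.86 in SAB, 8.34, 8.20 and 8.03 in SIZ1, 8.52, 8.47 and 8.76 in AB, and 8.49, 8.45 and 8.61 in COL. SAB and SIZ1 both lay below COL without overlap. rbcL fell by 0.54 in SAB (SE 0.11, limma adjusted p = 0.0329), a call that ended with the replicate block (limma adjusted p = 0.0511), and differed by -0.33 in SIZ1.

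**Figure D3:**
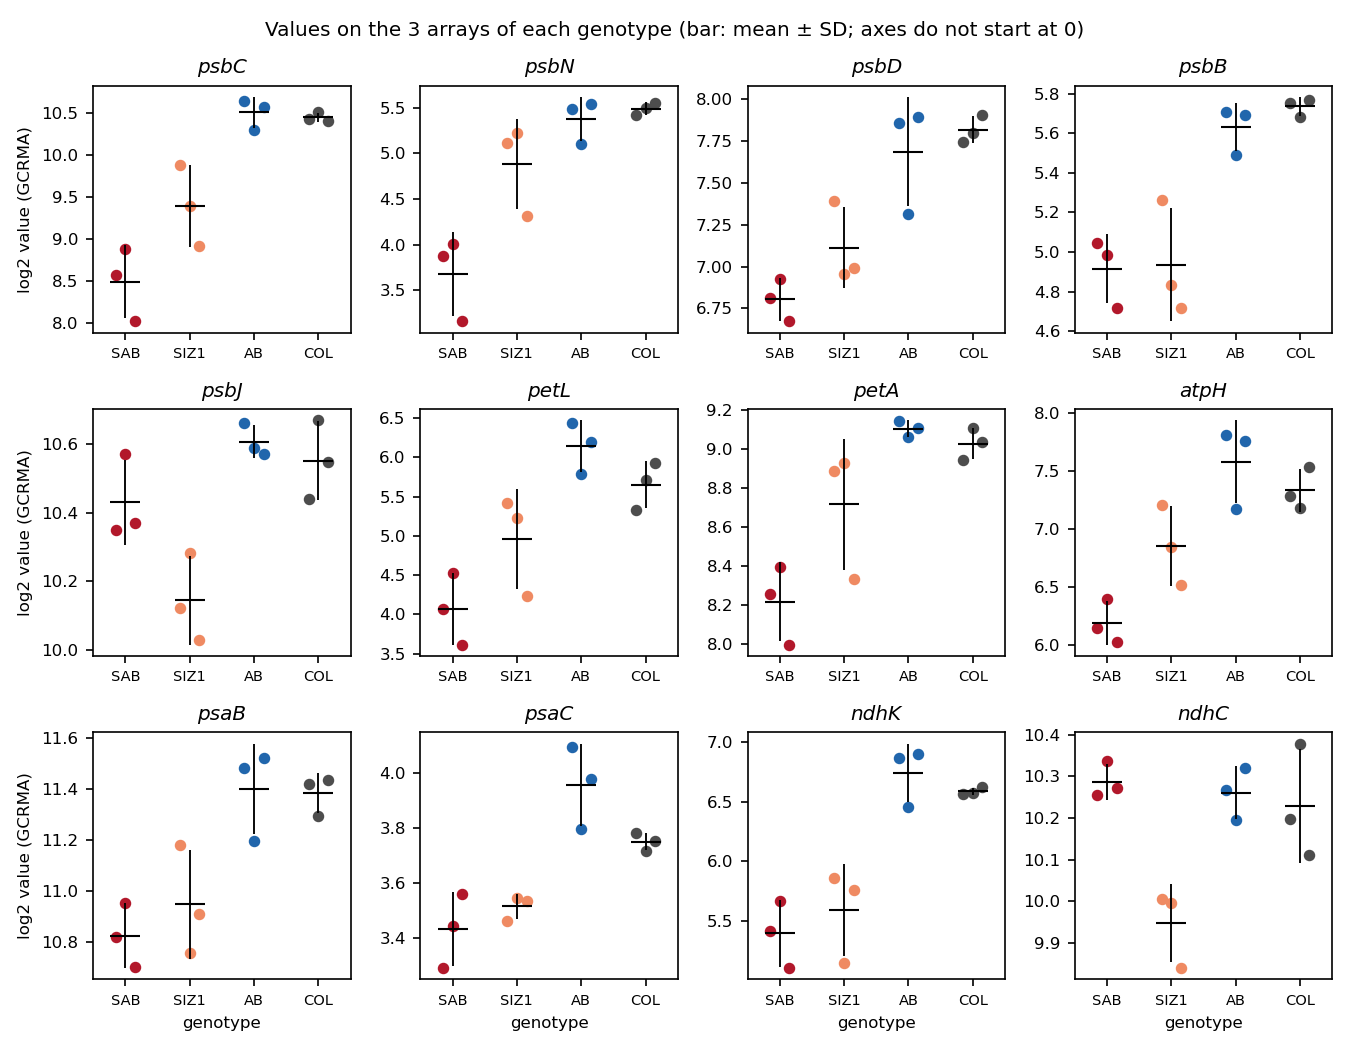
Log2 values of 12 genes on the 3 arrays of each genotype, with SAB at the left and COL at the right. Bars give the mean ± SD, and each panel has its own axis that does not start at 0. SAB is lowest and apart for psbC, psbN, psbD and atpH, SAB and SIZ1 overlap for psbB and ndhK, and SIZ1 is lowest for psbJ and ndhC.

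The calls of the SAB comparison rested on few arrays. No called gene changed direction when a SAB or COL array was left out, but these genes were picked by their calls. Without SAB 3 the count was 2, psbC and psbN, and it was 5 without SAB 1, 5 without COL 1, 9 without COL 2 and 7 without COL 3. Over all probe sets the calls in either direction, 731 with every array, were 375, 413, 334, 493 and 682 in these fits. psbC and psbN were called with each of the 12 arrays left out in turn. The SIZ1 calls were fewer still: 0 were left without COL 1, 1 without SIZ1 2, 2 without any of SAB 1, COL 2 and COL 3, and 3 without AB 1 or AB 3. Over all probe sets there were 732 calls with every array, 340 without COL 1, 317 without SIZ1 2, and from 514 to 686 in the other 5 fits. With the replicate number as a block, 15 of the 43 were called in SAB, 5 in SIZ1 and 18 in SAB against AB, where 5.16%, 5.13% and 6.82% of all probe sets were called. With the block 0 of the 43 were called in AB, in SAB against SIZ1 and in the test of the departure from the sum, where 0.325%, 0% and 0.0528% of all probe sets were called. With median centring 10 were lower in SIZ1, where 820 probe sets were called over the array. With only the probe sets above the overall median signal, 10 of the 37 genes kept were lower. There 975 probe sets were called among the brighter ones alone, not over the array.

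By complex, the medians of SAB lay in the order photosystem II, b6f, Rubisco, ATP synthase, photosystem I and NDH. Those of SIZ1 ran from -0.52 in the ATP synthase to -0.24 in NDH, a narrower range. Within arrays, the photosystem II median minus the NDH median was -0.50, -0.38 and -0.84 on SAB 1, 2 and 3 and -0.28, -0.11 and -0.31 on SIZ1 1, 2 and 3. It was -0.07, -0.09 and -0.07 on the AB arrays and -0.03, 0.03 and -0.01 on the COL arrays. All SAB values lay below all SIZ1 values, and these below all AB and COL values. Photosystem II and NDH are the ends of the SAB order on these same arrays. The separation of SAB in this contrast therefore follows in part from the choice of complexes. Since the genes of a complex share transcripts and arrays, they are no replicates, and no test was made of this order.

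**Figure D4:**
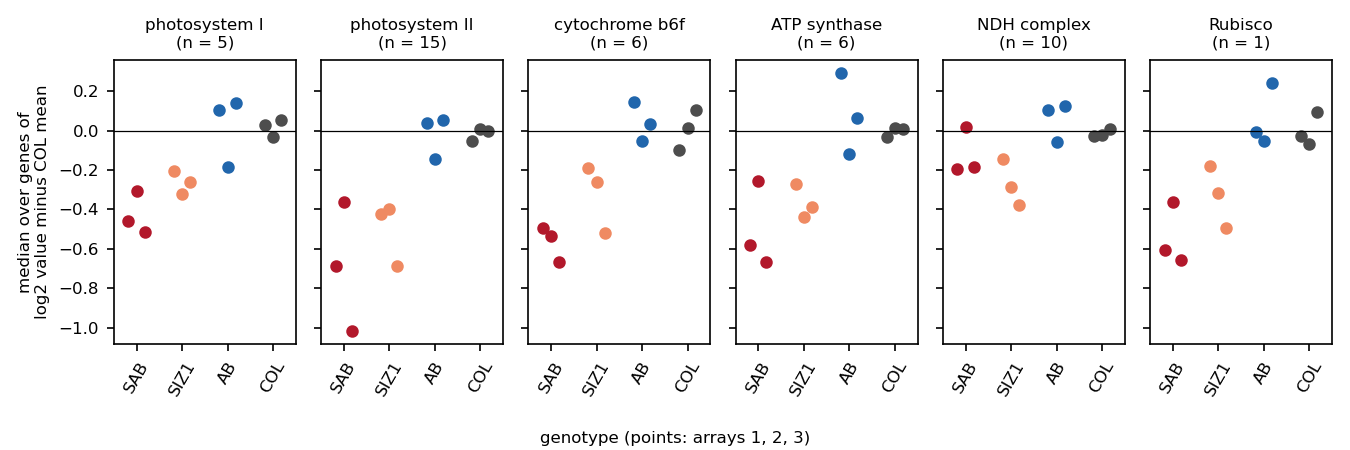
Each point is 1 array, the y axis is the median over the genes of a complex of the log2 value minus the COL mean, and panels are the 6 complexes with their number of genes. The SAB points of photosystem II reach -1.02, while those of the NDH complex lie between -0.19 and 0.02. The b6f and NDH medians include dim genes.

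SAB and SIZ1 share the loss of signal at 1 of the 2 SIZ1 probe sets, and were compared with each other. No gene of the 43 was called (limma adjusted p = 0.88 for each of the 13 at an unadjusted p under 0.05), and 0% of all probe sets were, in either direction. Of those 13, 6 were lower in SAB (psbC, psbN, psbH, petA, petL and atpH) and 7 higher (psbM, psbJ, petB, ndhA, ndhC, ndhD and ndhI). The share of all probe sets at that unadjusted cut was not counted, so these numbers cannot be set against the array. psbN differed by -1.20 (95% interval -1.82 to -0.59) and psbC by -0.90 (-1.48 to -0.32). ndhC differed by 0.34 (0.18 to 0.50) and psbM by 0.29 (0.09 to 0.50). SAB lay below SIZ1 without overlap for 5 genes and above for 5, where 3.69% and 6.76% of all probe sets did. These intervals do not show that the lines were alike for such genes, and the adjusted test does not show that they differed.

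SAB and AB were compared to see a difference that does not use the COL values. The COL arrays still entered the shared spread behind its SE and p-values. SAB lay below AB without overlap for 28 of the 43 and above for none, where 10.3% and 10.5% of all probe sets did. Of the 43, 19 were lower in SAB and none higher, against 2.08% of all probe sets called lower and 2.35% higher. petL and psbC had the largest differences, -2.07 (SE 0.34) and -2.02 (SE 0.26, limma adjusted p = 0.0116 and 0.00395). Of the 19, 14 were among the 16 called against COL, and both comparisons share the SAB arrays. The others were psbA, psbT, atpF, psaI and psaC, which lay between -0.52 and -1.30. psbA was the gene just inside the threshold and petG the gene just outside (limma adjusted p = 0.0484 and 0.0520), and the call of psbA ended with the replicate block and with quantile normalization. The count was 11 without SAB 1 or AB 3, 10 without SAB 3 and 9 without AB 1. Over all probe sets the calls, 1007 with every array, were 598, 819, 686 and 580 in these fits.

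AB itself had no call against COL, where 0.0615% of all probe sets were called. The share of all probe sets with an unadjusted p under 0.05 was not counted, and 1 of the 43 genes had one. That gene was psaC, which encodes an iron-sulfur protein of photosystem I. It read 4.10, 3.80 and 3.98 in AB, against 3.78, 3.72 and 3.75 in COL, a difference of 0.21 (limma adjusted p = 0.548). AB arrays lay above COL without overlap for psaC and ndhA, 2 of the 43, and 4.69% of all probe sets did so. None lay below, against 6.43% of all probe sets. The 95% intervals of the 43 differences reached from -0.73, for psbN, to 1.26, for petL, so falls of the size of psbC in SAB lay outside all of them. The median differences, -0.46 in SAB and -0.41 in SIZ1, lay inside the AB interval of some genes, such as psbN and atpA. They lay outside that of others, such as ndhI (-0.11 to 0.11).

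Whether SAB departed from the sum of the differences of SIZ1 and AB was tested as an interaction. No gene of the 43 was called (limma), as 0% of all probe sets were. Of the 43, 10 had an unadjusted p under 0.05, and the share of all probe sets at that cut was not counted. petL departed by -1.38 (95% interval -2.46 to -0.29), psbN by -1.09 (-1.96 to -0.22), psbC by -0.96 (-1.78 to -0.14) and ndhC by 0.31 (0.08 to 0.54), all with limma adjusted p of 0.76 or above.

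Position on the plastid genome was set beside the differences. The 43 genes form 28 pairs of direct neighbours with no other gene between them. In SAB the difference of neighbours from COL was apart by a median of 0.47, and that of all 903 possible pairs by 0.50. In SIZ1 the medians were 0.14 and 0.27, and in AB 0.14 and 0.11. In SAB, direct neighbours could thus stand far apart: ndhK at -1.19 beside ndhC at 0.06, psbH at -0.96 beside petB at -0.10, and psaB at -0.56 beside psaA at 0.05. Others stood together, such as ndhJ and ndhK at -1.11 and -1.19 and atpF and atpH at -1.17 and -1.15. Pairs share genes and arrays, so these medians are a description.

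**Figure D5:**
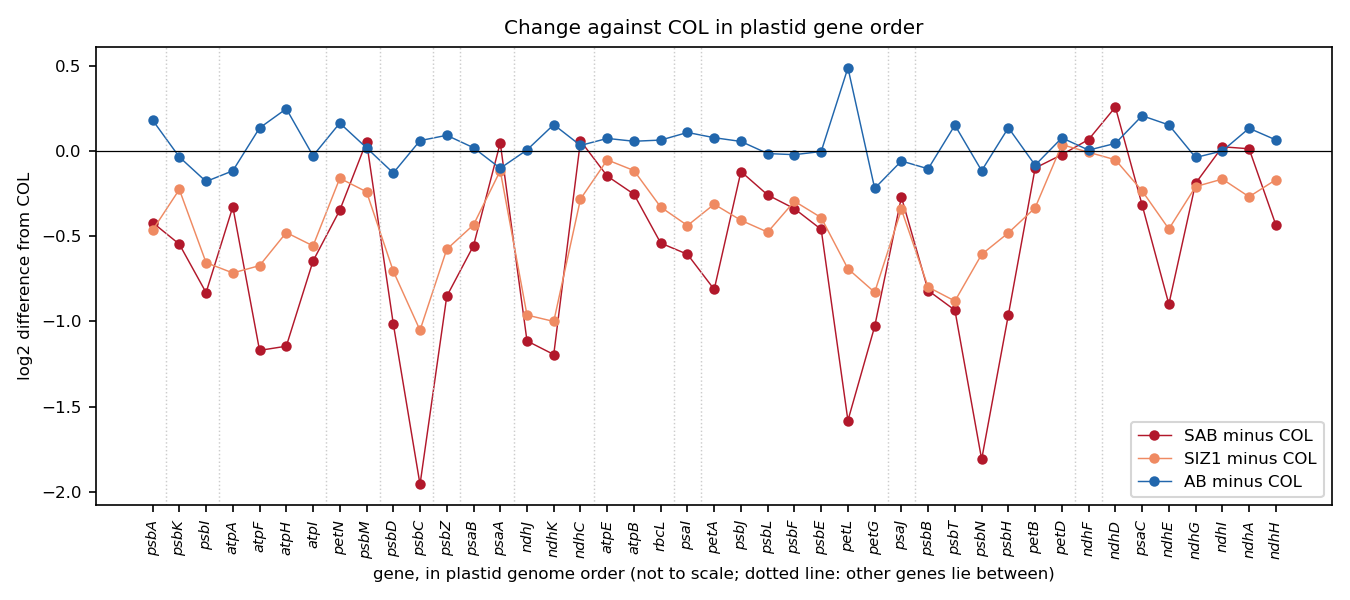
Log2 differences of SAB, SIZ1 and AB from COL for the 43 genes in their order on the plastid genome, which is not to scale, with dotted lines where other genes lie between. SAB has its lowest points at psbC, psbN and petL, SIZ1 at psbC, ndhK and ndhJ, and AB its highest at petL.

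The other genes of the plastid genome, mostly for its ribosome and RNA polymerase, gave a smaller median. Of these 26, 5 fell in SAB (median -0.17), 2 in SIZ1 (-0.15) and none in AB (0.11). Over all probe sets 1.56% were called lower in SAB and 1.29% in SIZ1. In SAB 17 of the 26 estimates lay below 0. The largest fall there was that of the ribosomal gene rpl20, by 1.40 (limma adjusted p = 0.0201), and cemA fell by 1.20 (limma adjusted p = 0.0257). accD, for a subunit of acetyl-CoA carboxylase, fell by 1.39 in SAB, and the photosystem I assembly gene ycf4 fell by 1.06 in SAB and by 0.78 in SIZ1. accD and ycf4 lie between rbcL and petA. Nuclear partners of the same complexes were read for 8 of 37 listed loci, and none was called in SAB, SIZ1 or AB. Their median was -0.15 in SAB, with differences from -0.22 (PSAN, photosystem I) to -0.04 (ATPC2), -0.17 in SIZ1 and -0.02 in AB. Of 18 antenna loci 3 were read, all of the LHCB4 family, and LHCB4.2 fell by 0.85 in SAB and by 0.84 in SIZ1. LHCB4.1 fell by 0.19 in SIZ1 (limma adjusted p = 0.0280) and differed by -0.14 in SAB without a call (limma adjusted p = 0.0847), and LHCB4.3 differed by 0.07 in SAB and 0.21 in SIZ1, neither called. Among 15 loci for plastid transcription only the phage-type polymerase gene AT5G15700 was read under its own name, at the floor in all genotypes. The 18 mitochondrial genes matched by symbol had medians of 0.02 in SAB, 0.04 in SIZ1 and 0.01 in AB, with no call.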

How the data were processed

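Transcripts of 12 seedling samples were read on Affymetrix ATH1 arrays. The authors deposited 1 log2 value for each probe set and array. GCRMA made them, per the submitters' processing notes, and the sources used here give no version. Per the labels' protocols, 652 to 894 ng of RNA was amplified and labelled with biotin. No further normalization was applied, and 64 control probe sets were left out. Genes were named from the platform's annotation, with locus codes and gene order from RefSeq genes of TAIR10.1 matched by gene ID. No coordinates are printed. Of 22746 probe sets, 13513 name 1 gene, 503 several, and 8730 are unnamed here. Mitochondrial genes matched no locus code, so a match by symbol was used instead, chosen after the data were seen.

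The 12 arrays entered 1 linear model of genotype in limma 3.58.1 and R 4.3.3 (lmFit, eBayes, 8 residual and 1.31 prior degrees of freedom), with two-sided tests and Benjamini-Hochberg adjustment over all probe sets. SE is limma's moderated standard error, and intervals are 95%, not adjusted for the number of genes. The script was tested on simulated data. The members and lists were chosen with earlier results of these data known. Named are all genes called in any comparison, the lowest and highest of each complex in SAB and SIZ1, those at the threshold, and up to 4 genes of each other list. Genes named for their position or for the SAB and SIZ1 comparison were picked after their values were seen. Alternatives were quantile normalization, median centring, brighter probe sets only, an intensity trend, a replicate block, the groups compared alone, 1 probe set per gene, and each array left out.

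The replicate numbers in the sample names were checked for pairing. In the 18 pairs of arrays with the same number, the correlation of their deviations over all probe sets ran from 0.102 to 0.451 (median 0.257). The other 36 pairs had a median of -0.125. That value adds little, since deviations from genotype means cancel within each genotype. From the correlations of the 18 pairs, the numbers were taken to pair the samples. The main fit has no replicate block, so its counts, SE, intervals and p-values leave this pairing out. A blocked value is given where the block changed a call. Over the 43 genes alone the 18 correlations ran from -0.353 to 0.479.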

Additional observations from a re-analysis of the deposited data

Results flagged for a closer look

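psaC stood on opposite sides of COL in the lines. Its 3 SAB values (3.29, 3.44 and 3.56) and its 3 SIZ1 values (3.46, 3.55 and 3.54) lay below all 3 COL values, and its 3 AB values lay above them. The differences from COL were -0.32 in SAB, -0.23 in SIZ1 and 0.21 in AB, none of them called (limma adjusted p = 0.0753, 0.181 and 0.548). Over all probe sets 9.83% lay below COL without overlap in SAB, 26% below in SIZ1 and 4.69% above in AB. SAB against AB was called (-0.52, limma adjusted p = 0.00894), while the difference between AB and SIZ1 was not tested. psaC lay close to the overall median of the array, so its changes may be understated.

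ndhA, a membrane-arm gene of the NDH complex, lay above all COL values in AB (9.98, 9.91 and 10.04) and below them in SIZ1 (9.66, 9.70 and 9.37), with differences of 0.13 and -0.27. The COL values were 9.81, 9.89 and 9.84. Neither difference from COL was called, and the difference between AB and SIZ1 was not tested. In AB 2 of the 43 genes, psaC and ndhA, lay above COL without overlap, near the 4.69% of all probe sets. In SIZ1 26% of all probe sets lay below COL without overlap.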

How the results depend on the processing

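The 40 calls were repeated under the 7 other alternatives and with each array left out. Of 759 repeats, 566 stayed past the threshold, 193 did not and 0 reversed. Many of these fits cannot change an estimate, such as the trend, the block or leaving out an array of a genotype not compared. The genes were also picked by their calls, so the absence of reversals says little about stability. The medians of the 43 genes stayed between -0.57 and -0.38 in SAB, between -0.44 and -0.32 in SIZ1 and between 0.00 and 0.10 in AB. In the fit to the groups compared alone, which has fewer arrays, 7 genes were called in SAB, 0 in SIZ1 and 12 in SAB against AB. Over all probe sets 230, 131 and 738 were called in these fits. In SIZ1 the count was 10 with median centring and 8 with an intensity trend (820 and 737 over all probe sets). It was 10 of 37 genes with brighter probe sets only, where 975 were called among the brighter probe sets. The cause was not tested. With 1 array left out, counts ran from 2 to 15 in SAB, from 0 to 6 in SIZ1 and from 9 to 20 in SAB against AB. They were 0 throughout for AB against COL, SAB against SIZ1 and the departure from the sum. With the replicate block the counts were 15 in SAB, of which 14 were called without it, 5 in SIZ1 (4 of them) and 18 in SAB against AB (18), and 0 in the other comparisons. Among the 43 genes the block changed no call other than those given in the report, and calls in the other lists were not compared with it. With 3 arrays a genotype, and 6 genes near the floor, small changes could not be seen.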
